A study of Mus musculus with 8 samples.

Results

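Skint genes encode butyrophilin-like surface proteins of keratinocytes, and the CD3 genes encode the chains that carry the signal of the T cell receptor. Their transcripts were examined in mouse dorsal skin after topical alpinetin (AP) or vehicle control (VC). The members were the entries of the expression table named Skint3, Skint4, Skint5, Skint6, Skint9, Skint10, Cd3d, Cd3e and Cd3g. They are 9 of the 18770 genes of the table, and comprise 6 of its 11 Skint genes and 3 CD3 genes.

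Skint1, the founding member of the Skint family, is required in the thymus for the selection of the γδ T cells that settle in mouse epidermis as dendritic epidermal T cells. These cells carry an almost invariant γδ receptor, stay in contact with keratinocytes and are known for their response to skin damage. CD3 chains are shared by γδ and αβ T cells, so a CD3 transcript does not tell these lineages apart.

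Wildtype C57BL/6 mice (C57BL/6J in the study methods) were labelled as 7 to 8 weeks old. They were depilated on the dorsal skin (at 6 to 7 weeks by the study methods), and treatment began 24 h later. AP mice received 20 µl of AP at 3 mg/ml in 65% ethanol on the skin, VC mice received 20 µl of 65% ethanol, and 4 libraries per group were made from skin taken at D4 after depilation. Interfollicular epidermis was removed before RNA extraction, so the material was dermis with hair follicles. How much keratinocyte and epidermal T cell RNA remained in each library was therefore examined with marker genes. Within each group the libraries carry running numbers (VC.1, AP.1 and so on), which tie none of them to a particular mouse. Values of the 4 libraries of a group are given in the order of these numbers.

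Read totals on genes ranged from 6454563 to 7264151 for VC libraries and from 8507783 to 11190113 for AP libraries. The share of mitochondrially encoded genes was 48.4% ± 5.81 in VC and 8.66% ± 2.63 in AP libraries (SD, n = 4). Without them, 3080758 to 3762217 reads remained per VC library and 7561598 to 10594787 per AP library. Low transcripts were thus counted less deeply in VC libraries: 3 reads, taken as the floor, corresponded to 4.10 to 5.63 normalized counts in VC libraries and to 1.49 to 2.18 in AP libraries. Such limits cover counting error only. The part of the mitochondrial share and of depth in the results below was not tested beyond the alternatives named here. Normalized counts are read counts divided by 1 size factor per library.

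Skint transcripts were higher in AP skin. Of the 6 Skint members, 5 passed an adjusted p under 0.05 and all 5 were higher in the AP group (limma on log2(normalized count + 1) with Benjamini-Hochberg adjustment over 15964 genes), whereas 6.33% of all genes tested were called higher and 10.3% were called in either direction. The median log2 fold change, AP over VC, was 2.60 for the Skint members and 0.06 for all genes tested. None of the 3 CD3 members was called, with a median of 1.61. On the recovered reads, DESeq2 and edgeR each called 5 Skint members and 0 CD3 members, whereas limma-voom called 0 of either. In bulk skin, fewer cells of a type and less RNA per cell cannot be told apart, so these values describe transcripts in the tissue.

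Skint3 had the highest mean of the family. Its normalized counts were 38.2, 20.7, 31.4 and 35.6 in the 4 VC libraries, against 94.3, 67.4, 242 and 301 in the 4 AP libraries. Every AP library lay above every VC library, and AP.3 and AP.4 lay far above AP.1 and AP.2. The log2 fold change was 2.22 (SE 0.46, limma adjusted p = 0.0179). Lowest AP libraries above the highest VC libraries were seen in 10.3% of the genes tested, and in 4 of the 9 members (Skint3, Skint9, Skint10 and Cd3d).

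Skint9 had the largest fold change of the 9 members over all libraries; Skint6 came first without VC.2 (log2 fold change 4.44 against 4.35) and without AP.2 (4.438 against 4.435). It was counted at 0, 11.8, 17.8 and 9.38 normalized counts across the VC libraries, and at 64.5, 53.9, 213 and 254 in the AP libraries. The VC values rested on 0, 8, 13 and 5 reads, so the size of the fold change is loosely set while the order of the groups is plain. On the log2 scale the difference was 4.07 (SE 0.87, limma adjusted p = 0.0197).

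For Skint10, VC libraries held 3.64, 16.3, 4.10 and 7.50 normalized counts and AP libraries held 33.4, 35.0, 114 and 90.8. The groups did not overlap, and this was the Skint member in which AP.3 rather than AP.4 was highest. Its log2 fold change was 2.97 (SE 0.58, limma adjusted p = 0.0149), the lowest adjusted p of the members.

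Skint6 reached 47.9, 15.1, 155 and 198 normalized counts in the AP libraries, against 0, 22.2, 10.9 and 1.88 in the VC libraries. AP.2 lay below VC.2, so the groups overlapped. The log2 fold change was 3.73 (SE 1.02, limma adjusted p = 0.0418), with 0 and 1 reads behind the values of VC.1 and VC.4. An antisense gene, Gm12823, lies within Skint6 and had 0 reads in the VC libraries and 1.08 to 9.30 normalized counts in the AP libraries; as the counting was not stated to use strand, reads from both genes cannot be told apart.

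Skint4 overlapped through a single library of each group. VC.1 had 49.1 normalized counts, above the 45.8 of AP.2, while VC.2, VC.3 and VC.4 had 20.7, 19.1 and 22.5. The remaining AP libraries had 52.9, 157 and 174. Thus AP.3 and AP.4 carried most of the difference, which was 1.77 on the log2 scale (SE 0.50, limma adjusted p = 0.0449).

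Skint5 was the Skint member that did not pass the test. VC values were 7.28, 26.6, 53.3 and 18.8 normalized counts, and AP values were 33.4, 18.9, 115 and 167. AP.1 and AP.2 lay within the range of the VC libraries, and AP.3 and AP.4 lay above it. The log2 fold change of 1.44 had a 95% interval from -0.15 to 3.03 (limma adjusted p = 0.203), which leaves room for both a small and a large difference. Without AP.4 it was 0.95.

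**Figure D1:**
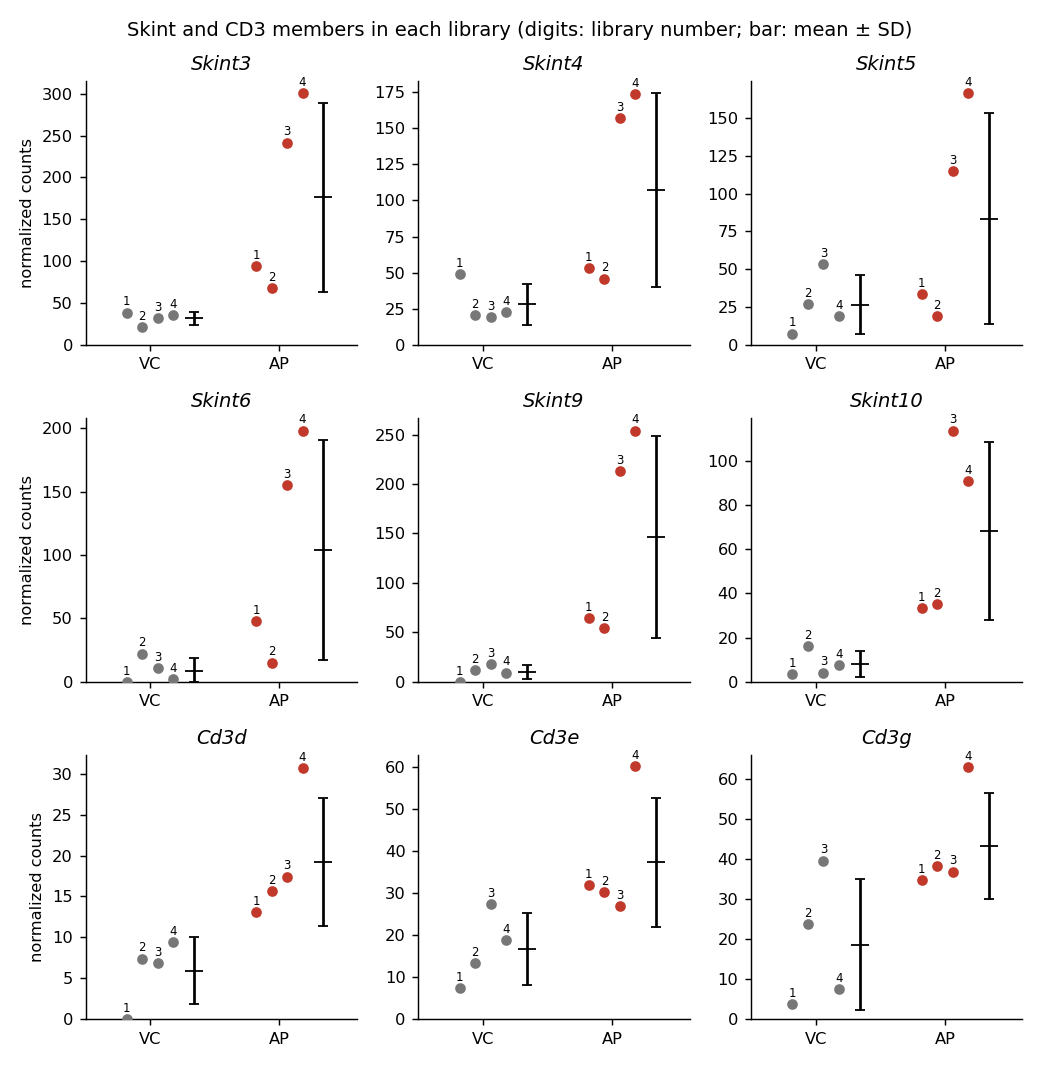
Normalized counts of the 9 members in each library on linear axes that start at 0, with the VC libraries in grey, the AP libraries in red and black bars for the mean ± SD of 4 libraries (drawn no lower than 0). For the Skint members AP.3 and AP.4 stand above AP.1 and AP.2, as for Skint3 with 242 and 301 against 94.3 and 67.4, whereas AP.4 stands alone for Cd3e with 60.1.

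In each of the 6 Skint members, AP.3 and AP.4 were higher than AP.1 and AP.2, and the same order was seen in 11 of the 11 Skint genes of the table. Without AP.3, 0 Skint members were called, and without AP.4, 0 were called, while all genes called fell from 1650 to 303 and 393. The fold changes kept their sign. For Skint3, Skint9 and Skint10, log2 fold changes were 1.98, 3.78 and 2.66 without AP.3 and 1.88, 3.70 and 2.77 without AP.4, at adjusted p between 0.0538 and 0.0706. Without VC.4, 3 Skint members passed (Skint3, Skint9 and Skint10). Skint4 also lost its call without VC.2, VC.3 or VC.4 and Skint6 without VC.1 or VC.4, with adjusted p up to 0.143 and 0.128 over the libraries left out. With both AP.3 and AP.4 left out, an alternative chosen after seeing the data, 0 Skint members and 30 genes in all were called, and the log2 fold changes of Skint3, Skint4, Skint5, Skint6, Skint9 and Skint10 were 1.35, 0.91, 0.23, 2.40, 3.09 and 2.20. By limma-voom, 0 of the 6 were called as well, at adjusted p of 0.0654 (Skint10) to 0.411 (Skint5).

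The study took p below 0.01 together with a change of more than 1.5-fold from DESeq2. With these thresholds on unadjusted p of the limma fit, a different test, the same 5 Skint members and none of the CD3 members were higher, where 8.26% of the genes tested met them in that direction.

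The Skint genes outside the members pointed the same way. Skint2 and Skint11 passed the test, and Skint1, Skint7 and Skint8 did not. Skint1, the gene of thymic selection, had 0, 28.1, 10.9 and 20.6 normalized counts across the VC libraries and 45.0, 37.2, 110.0 and 133 in the AP libraries. Its groups did not overlap, but its adjusted p was 0.0619 by limma at a log2 fold change of 2.94 (SE 0.92), and 0.0467 without VC.2. Skint1 was also called by DESeq2 (adjusted p = 0.00406), by edgeR (0.0451), with a pseudocount of 5 (0.0335) and with total counts (0.00501), but not by limma-voom (0.10), without AP.3 (0.162) or without AP.4 (0.157). Without VC.1, which had 0 reads, its log2 fold change was 1.87. Skint11 ranged from 0 to 9.56 normalized counts in VC libraries and from 9.71 to 86.5 in AP libraries (log2 fold change 2.98, SE 0.84, limma adjusted p = 0.0455). Skint2 ranged from 0 to 5.46 and from 9.71 to 27.9 (2.61, SE 0.71, limma adjusted p = 0.0414). Both of these calls were lost in 6 of the 8 fits that left out 1 library, with adjusted p up to 0.136 for Skint2 (kept without VC.1 or VC.3) and 0.140 for Skint11 (kept without VC.3 or AP.2). With a pseudocount of 0.5 and by limma-voom both were lost as well (adjusted p 0.0528 and 0.0766 for Skint2, 0.0561 and 0.166 for Skint11), and Skint11 also without a filter (0.0515) and with reads drawn down to equal depth (0.0588). Skint7 and Skint8 had log2 fold changes of 1.76 and 1.87 at limma adjusted p of 0.225 and 0.126 (1.03 and 1.21 without VC.4), and share sequence with each other: 7.53% of the 50-base words of Skint7 transcripts occur in transcripts of other genes, mostly Skint8.

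Over the family, 7 of 11 Skint genes were called higher and 0 lower, with a median log2 fold change of 2.61, where 6.33% of all genes tested were called higher. Skint5 and Skint6 shared 3.97% and 4.64% of their 50-base words, in both cases with each other, Skint3 shared 0.49% with Skint2, Skint4 shared 0.19% with genes outside the family, and Skint9 and Skint10 shared 0% with any other transcript. At 100 bases, 0% of the words of any Skint member was shared. The read length was not given in the sources used here, so the Skint5 and Skint6 values are uncertain to the extent of this shared part.

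The 11 Skint genes lie in 1 cluster of 2326 kb on chromosome 4, from chr4:111919392 to chr4:114245028 (mm10), in the order Skint8, Skint7, Skint1, Skint4, Skint3, Skint9, Skint2, Skint10, Skint6, Skint5 and Skint11. Skint3 (chr4:112232245-112300468) and Skint4 (chr4:112072016-112168076) are on the plus strand. Skint9 (chr4:112385969-112433985), Skint10 (chr4:112711147-112774866), Skint6 (chr4:112804616-113286973) and Skint5 (chr4:113477891-113999503) are on the minus strand. Genes on both strands were called, as were genes in the middle of the cluster and Skint11 at its end. Slc5a9, a glucose transporter gene next to the cluster on the side of Skint8, had 0 to 19.2 normalized counts in VC and 17.8 to 69.3 in AP libraries (log2 fold change 2.78, SE 0.90, limma adjusted p = 0.0670). The other flanking genes tested, Spata6 and Bend5 before the cluster and Trabd2b, Foxd2 and Cmpk1 after it, had log2 fold changes between -0.93 and 0.25 at adjusted p of 0.233 or more by limma. The high values were thus found across the cluster and not among these 5 neighbours, while Slc5a9 lay just outside the threshold. The flanking genes were chosen by position.

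**Figure D2:**
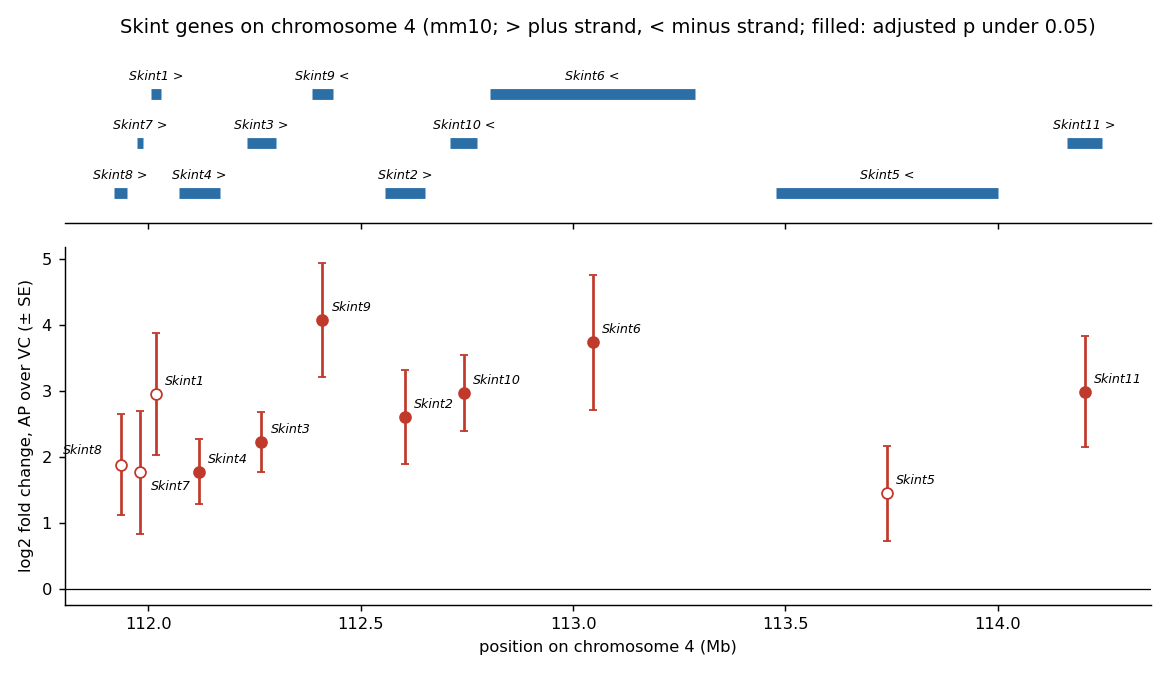
Position of the 11 Skint genes on chromosome 4 of mm10 (upper panel, strand after each name) and the log2 fold change of each, AP over VC, with its SE (lower panel, filled points for adjusted p under 0.05 by limma). All 11 points lie above 0, from 1.44 for Skint5 to 4.07 for Skint9, and 7 are filled.

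The Skint promoters share short stretches of sequence. RefSeq promoter windows (GRCm38.p6, 250 bases before to 50 bases after the gene start) were present for all 9 members and for all 11 Skint genes. Skint5 and Skint6 windows had 269 of 300 bases identical, although Skint6 was called and Skint5 was not. For Skint4, the second of 2 windows was used. It lies inside the gene (chr4:112081220-112081519), whereas the first covers the gene start (chr4:112071766-112072065). Before the start, the longest word common to these windows of Skint1, Skint3, Skint4, Skint5 and Skint6 was AGTACTTGAGTAAT, of 14 bases. Searched on both strands, it was present in 5 of 32851 mouse promoter windows (0.0152%), which were these 5. The window at the gene start of Skint4 thus did not hold it. Skint9, Skint10 and Skint11 instead shared TGACTTTCATAAA, of 13 bases, found in 3 of the 32851 windows (0.00913%). These words were chosen by comparing the windows with each other, and a shared word in copies of 1 gene family is a description of their sequence and not of a binding site. The sequence around the words is shown for the members that hold them; capitals mark the shared word, and each is read 5′ to 3′ on the strand of the gene.
Skint3, chr4:112232092-112232205, plus strand: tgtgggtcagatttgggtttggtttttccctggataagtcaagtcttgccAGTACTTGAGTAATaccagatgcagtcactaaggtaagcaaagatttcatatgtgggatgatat
Skint4, chr4:112081373-112081469, plus strand: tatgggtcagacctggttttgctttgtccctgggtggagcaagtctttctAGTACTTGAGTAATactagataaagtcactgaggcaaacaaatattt
Skint6, chr4:113287138-113287223, minus strand: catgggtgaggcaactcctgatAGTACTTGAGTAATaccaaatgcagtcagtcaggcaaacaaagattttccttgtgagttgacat
Skint5, chr4:113999668-113999753, minus strand: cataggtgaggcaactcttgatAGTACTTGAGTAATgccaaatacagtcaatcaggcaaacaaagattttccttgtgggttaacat
Skint9, chr4:112434122-112434234, minus strand: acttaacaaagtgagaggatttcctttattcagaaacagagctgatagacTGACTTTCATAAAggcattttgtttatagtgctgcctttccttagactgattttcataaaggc
Skint10, chr4:112774912-112775024, minus strand: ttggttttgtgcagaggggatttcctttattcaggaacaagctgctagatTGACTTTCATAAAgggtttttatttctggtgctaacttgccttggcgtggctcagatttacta
The word begins 231 bases before the gene start in Skint1, 228 in both Skint5 and Skint6 and 103 in Skint3. In the second window of Skint4 it begins 47 bases before the start that defines that window. Its distance was thus nearly the same in Skint1, Skint5 and Skint6 and differed in Skint3 and Skint4. In Skint9 and Skint10 the word begins 199 and 113 bases before the start.

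Keratinocyte markers moved with the Skint genes. Of 12 suprabasal genes, 10 were called higher and 0 lower, where 6.33% of all genes tested were called higher. Their median log2 fold change was 2.96. Krt10, the main keratin of suprabasal cells, had 1302, 4085, 2280 and 1838 normalized counts in VC libraries and 15852, 17528, 47444 and 73321 in AP libraries. As for the Skint members, AP.3 and AP.4 were the highest libraries. Its log2 fold change was 3.85 (SE 0.50, limma adjusted p = 0.00367), and those of Krt77, Krt1, Dsc1, Krtdap and Dsg1a lay between 2.70 and 3.95. Summed over the list, the level was 8244, 16414, 11320 and 7103 across VC libraries and 50097, 50014, 138272 and 191746 in AP libraries. Of 8 basal genes, 4 were called higher (Itga6, Dst, Col17a1 and Itgb4), with log2 fold changes of 1.11 to 1.92, and the most abundant, Krt14, was not (1.02, limma adjusted p = 0.212), nor was Krt5. The calls of Col17a1 and Itgb4 were lost without VC.1, VC.4, AP.3 or AP.4, and that of Itgb4 also without AP.2 (adjusted p 0.0544 to 0.118) and by edgeR (0.0560). The summed basal level overlapped between groups, at 25628 to 84352 in VC libraries and 57300 to 150219 in AP libraries. The part of the amount of epidermis in the Skint result was not tested.

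Set against Krt10 within each library, the Skint members were lower in AP skin. Their summed counts per 1000 counts of Krt10 were 75.4, 28.9, 59.9 and 52.0 in VC libraries and 20.6, 13.5, 21.0 and 16.2 in AP libraries. Set against Krt5, a basal keratin, they were higher, at 8.33, 3.52, 6.45 and 9.34 per 1000 in VC libraries and 14.2, 11.1, 25.0 and 19.5 in AP libraries. The direction of the ratio thus turned with the keratin chosen, and both sets of values did not overlap between groups. Per 1000 of Krt14, the groups overlapped (3.0 to 10.4 in VC and 9.50 to 23.4 in AP libraries).

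**Figure D3:**
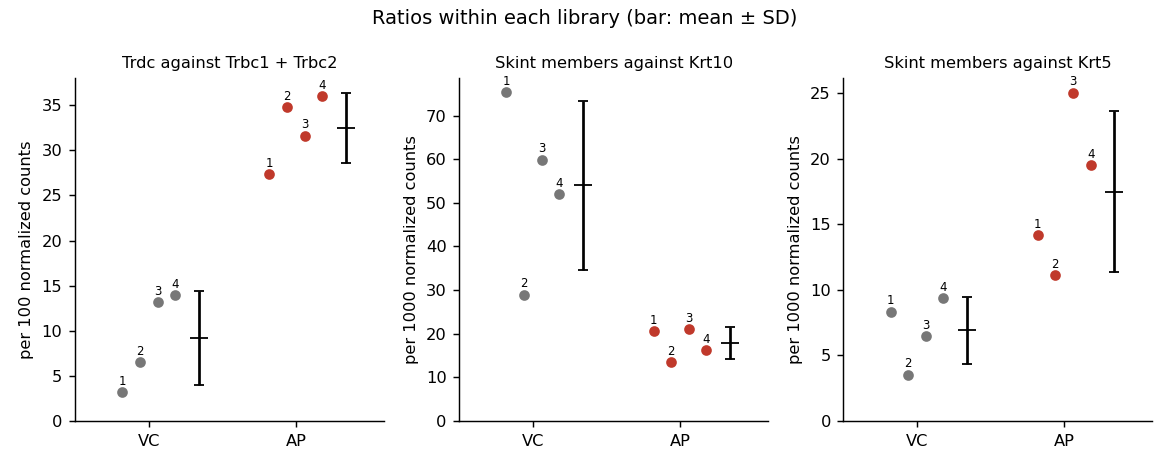
Ratios of normalized counts within each library on axes that start at 0, with VC libraries in grey, AP libraries in red and black bars for the mean ± SD of 4 libraries. Trdc per 100 of Trbc1 and Trbc2 was 3.17 to 14.0 in VC and 27.3 to 36.0 in AP libraries, while the Skint members per 1000 of Krt10 were lower in AP and per 1000 of Krt5 higher in AP libraries.

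The CD3 genes, a set of 3 neighbours on chromosome 9 (chr9:44969572-45009627, mm10), were low in all libraries. Cd3e, the chain with which Cd3d and Cd3g pair in the receptor complex, had 7.28, 13.3, 27.3 and 18.8 normalized counts in VC libraries and 31.9, 30.2, 26.9 and 60.1 in AP libraries. AP.3 lay just below VC.3, and AP.4 stood apart from the other AP libraries. The log2 fold change was 1.18 (SE 0.47, 95% interval 0.15 to 2.22, limma adjusted p = 0.120). An antisense gene, Gm48719, lies within Cd3e and had 0 to 12.3 normalized counts in VC and 6.47 to 32.9 in AP libraries, so that reads of both cannot be told apart.

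On the scale of normalized counts, Cd3g had the largest SD between VC libraries of the CD3 genes (16.5, n = 4). It had 3.64, 23.6, 39.6 and 7.50 normalized counts in VC libraries, and 34.8, 38.3, 36.9 and 62.9 in AP libraries. VC.3 lay above AP.1, AP.2 and AP.3, so a single VC library filled the gap between the groups. Its log2 fold change of 1.61 (SE 0.63, 95% interval 0.23 to 2.99) had a limma adjusted p of 0.115, which was 0.0489 without VC.3.

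Cd3d was the CD3 member whose groups did not overlap, with 0, 7.39, 6.83 and 9.38 normalized counts in VC libraries and 13.1, 15.6, 17.4 and 30.8 in AP libraries. The VC values rest on 0, 5, 5 and 5 reads. The log2 fold change was 1.91 (SE 0.76, 95% interval 0.25 to 3.57, limma adjusted p = 0.117), and 1.13 without VC.1.

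VC.1 was the lowest and AP.4 the highest library for each of the 3 CD3 genes. AP.3, which was high for the Skint genes, was not high for Cd3e or Cd3g. Flanking the CD3 genes, Mpzl3 and Mpzl2 were called higher, with log2 fold changes of 3.15 and 1.35 (limma adjusted p = 0.0222 and 0.0258), and Ube4a, Atp5l, Gm30934 and Jaml were not called. Scaling by total counts, which moves the median over all genes tested from a log2 fold change of 0.06 to 0.90, called all 9 members.

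By level per kb of exon, Skint3 was the first of the 9 members in VC libraries, at 8.19 ± 2.01 normalized counts per kb (SD, n = 4), and Skint10 the last, at 2.11 ± 1.56. In AP libraries Skint9 was the first, at 107 ± 74.3, followed by Skint3 at 45.8 ± 29.5, and Cd3e was the last, at 9.14 ± 3.76. In neither group did neighbours in this order differ by more than the larger of their SDs. Exon length was that of all transcripts of a gene merged. For Skint10 and Cd3e it was 3738 and 4080 bases, against 2149 and 2550 in the longest transcript. The last places therefore depend on the length used. The 6 Skint members took the first 6 places in AP libraries, whereas in VC libraries Cd3g, Cd3e and Cd3d lay between Skint5 and Skint6.

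Among the constant regions of the T cell receptor chains, that of the δ chain passed the test and those of the β chains did not. Trdc, the constant region of the δ chain, had 3.64, 11.8, 19.1 and 11.3 normalized counts in VC libraries and 29.7, 30.7, 37.4 and 66.5 in AP libraries. The groups did not overlap, and AP.4 was again the highest. Its log2 fold change was 1.86 (SE 0.52, limma adjusted p = 0.0440), and this call was kept without VC.3 and lost without any other single library (adjusted p 0.0532 to 0.136). It was also lost without a filter (0.0559), by limma-voom (0.0770) and with reads drawn down (0.0828), where the log2 fold change was 1.53. Trbc1 and Trbc2, the constant regions of the β chain, had log2 fold changes of -0.31 and 0.07 (limma adjusted p = 0.624 and 0.922), with 95% intervals of -1.16 to 0.54 and -0.73 to 0.86; the sign of Trbc2 turned in some alternatives, and that of Trbc1 with total counts. Trac, the constant region of the α chain, had 0 to 9.38 normalized counts and a log2 fold change of 1.17 (limma adjusted p = 0.392; 0.72 to 1.85 with 1 library left out).

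Within each library, Trdc per 100 counts of Trbc1 and Trbc2 was 3.17, 6.56, 13.2 and 14.0 in VC libraries and 27.3, 34.8, 31.6 and 36.0 in AP libraries. This ratio does not depend on the scaling of the libraries and was chosen after the values were seen, so it is a description. The VC values rest on 2, 8, 14 and 6 Trdc reads, but on 43 to 122 reads of Trbc1 and Trbc2. The groups did not overlap, and AP.4 did not stand apart in this measure.

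Chains used by dendritic epidermal T cells were at the edge of detection. Trdv4 had 0 to 7.50 normalized counts in VC and 7.25 to 30.0 in AP libraries (log2 fold change 2.24, limma adjusted p = 0.115), and Trgv5, listed as Tcrg-V5 elsewhere, had 0 to 4.43 and 1.62 to 14.3 (1.89, limma adjusted p = 0.184). Trgc1 and Trgc2, constant regions of the γ chain, had log2 fold changes of 1.59 and 0.55 (limma adjusted p = 0.224 and 0.728; 0.72 and 0.048 without VC.4), and Trgc4 was below the filter. AP.4 held the highest value of Trdv4, Trgv5, Trgc1 and Trgc4. Cd247, which encodes the ζ chain, had 58.2, 14.8, 31.4 and 9.38 normalized counts in VC and 58.7, 61.5, 61.8 and 91.6 in AP libraries (1.53, SE 0.50, limma adjusted p = 0.0700, 0.0320 without VC.1, and 0.0467 by DESeq2). Its groups did not overlap. Of 9 receptor chain genes tested, 1 was called higher and 0 lower, near the 10.3% over all genes, with a median log2 fold change of 1.53. Skin T cells were thus seen through low counts, and Trdc was the δ or γ chain gene counted in each of the 8 libraries.

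Of 15 T cell surface and signalling genes tested, 0 passed in the limma fit, where 10.3% of all genes did, with a median log2 fold change of 0.15. Fyn and Foxp3 were lower in every AP library than in any VC library (log2 fold changes -0.61 and -0.81, limma adjusted p = 0.0576 and 0.0590). Both were named because of this order, and the share of all genes that showed it was not counted, so it is a description. In the other direction, Cd6, below the filter, had 0 reads in the VC libraries and 12 in the AP libraries, and its groups did not overlap. Cd2 had 1.88 to 34.6 normalized counts in VC and 12.3 to 16.2 in AP libraries, and Cd5 had 2.73 to 32.7 and 4.31 to 16.4. Thy1, which fibroblasts also express, made up most of the summed level of the list, at 1365 ± 159 in VC and 1265 ± 198 in AP libraries (SD, n = 4). Of 11 genes of dendritic epidermal T cells, Trdc, already counted above, was the 1 called, which is again near 10.3%, and the median was 1.29. The most abundant gene was Fcer1g, an Fc receptor subunit that mast cells and macrophages share, at 496 ± 203 in VC and 278 ± 80.0 in AP libraries (SD, n = 4). Il2rb, of the same list, was higher in every AP library than in any VC library, as were 10.3% of the genes tested (log2 fold change 2.80, limma adjusted p = 0.0584).

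Genes listed as keratinocyte ligands and cytokines for epidermal T cells were partly higher. Of 10 genes tested, 4 were called higher and 0 lower, where 6.33% of all genes tested were called higher. The median log2 fold change of the list was 0.94. H60c, a ligand of the activating receptor NKG2D, had 21.8, 41.4, 25.9 and 26.3 normalized counts in VC libraries and 107, 98.1, 316 and 436 in AP libraries. Its groups did not overlap, and AP.3 and AP.4 were the highest, as for the Skint genes. On the log2 scale the difference was 2.76 (SE 0.47, limma adjusted p = 0.0103), and the call was kept without any 1 library and lost by limma-voom (adjusted p = 0.0714). Plxnb2, a ligand of CD100, and Cdh1, the E-cadherin that binds the integrin CD103, had log2 fold changes of 0.92 and 1.20 (limma adjusted p = 0.0108 and 0.0211). Btc, an epidermal growth factor family member, was at 0 to 5.91 normalized counts in VC and 12.9 to 31.9 in AP libraries (3.28, SE 0.75, limma adjusted p = 0.0242). Cdh1 lost its call without VC.1, AP.3 or AP.4, and Btc without AP.2, AP.3 or AP.4 (adjusted p up to 0.0687 and 0.0820). Cxadr was not called (log2 fold change 0.95, limma adjusted p = 0.0644), though every AP library lay above every VC library, as in 10.3% of the genes tested. The cytokines Il7 and Il15 were at 5.46 to 16.4 and 13.1 to 43.7 normalized counts in VC libraries and at 9.96 to 16.7 and 25.7 to 39.2 in AP libraries, and neither was called. In the butyrophilin list, the family to which Skint proteins are related, 4 of 8 genes were in the expression table. Of these, 1 passed the filter, Btnl9, at 34.3 ± 32.6 in VC and 56.2 ± 20.3 in AP libraries (SD, n = 4), and 0 were called. Btn1a1 and Btn2a2 had 8 and 3 reads in all libraries together.

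Of 8 pan leukocyte genes, 1 was called higher and 0 lower, near the share of 10.3% over all genes, with a median log2 fold change of -0.34. Ptprc, which encodes CD45, was at 226 ± 101 in VC and 186 ± 32.7 in AP libraries, and Cd52 at 242 ± 109 and 166 ± 42.7 (SD, n = 4). Lcp1, an actin-bundling protein, was the gene called, with a log2 fold change of 1.17 (limma adjusted p = 0.0297), which was lost without VC.1, VC.3, AP.2, AP.3 or AP.4 (adjusted p 0.0545 to 0.0800). Laptm5 was the most abundant of the list. Summed over the list, VC libraries had 2054, 1909, 1764 and 3827 normalized counts and AP libraries had 2845, 2081, 1755 and 1931, so AP.4 was not high. Per 100 counts of Ptprc, the 3 CD3 members summed to 5.36, 23.3, 52.9 and 9.60 in VC and 34.4, 51.8, 43.4 and 94.3 in AP libraries, and the groups overlapped.

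Cd207, which encodes the langerin of Langerhans cells, another resident of the epidermis, was higher in AP skin. It had 47.3, 28.1, 42.3 and 52.5 normalized counts in VC and 123, 79.8, 130 and 294 in AP libraries, with AP.4 the highest. Its log2 fold change was 1.72 (SE 0.38, limma adjusted p = 0.0224), and the call was lost without AP.3 or AP.4 (adjusted p up to 0.0684) and by limma-voom (0.0721). It was the 1 gene called of 8 in the list of Langerhans and dendritic cells, a share near the 10.3% over all genes. Of this list, the most abundant gene was Cd74 and the median was -0.08. Epcam was at 372 ± 108 in VC and 452 ± 106 in AP libraries (SD, n = 4).

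In the list of NK and innate lymphoid cells, 1 of 6 genes tested was called, Rora (log2 fold change 0.88, limma adjusted p = 0.0437), where 10.3% of all genes tested were called. Rora lost its call without VC.1, VC.3, VC.4, AP.1, AP.3 or AP.4 (adjusted p 0.0605 to 0.118), with upper-quartile factors, with reads drawn down and by limma-voom (0.0540 to 0.0599). The median of this list was 0.15, Gata3 was the most abundant, and Ncr1 and Klrb1c, defining markers of NK cells, were at 12 and 11 reads in all libraries together. Of 8 macrophage genes 0 were called, with a median of -0.82, and Lyz2 was the most abundant, at 7304 ± 3945 in VC and 3168 ± 971 in AP libraries (SD, n = 4). Adgre1 was at 449 ± 205 and 228 ± 54.9, and Csf1r was also tested. Of 5 mast cell genes, Mcpt4 and Tpsb2 were called lower, where 639 of all 15964 genes tested were. Their log2 fold changes were -1.08 and -1.39 (limma adjusted p = 0.0280 and 0.0453), against a list median of -1.02, and Cpa3 was not called. Both calls were lost without VC.1, VC.4, AP.3 or AP.4, and that of Tpsb2 also without VC.2 or AP.2 (adjusted p up to 0.0915 for Mcpt4 and 0.132 for Tpsb2). With total counts neither was called (0.455 and 0.215), and Tpsb2 was not called without a filter (0.0513).

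Of 4 neutrophil genes tested, S100a9 was called higher (3.11, SE 0.82, limma adjusted p = 0.0365), where 6.33% of all genes tested were. The call was kept without VC.2 or AP.1 and lost without any of the other libraries (adjusted p 0.0654 to 0.107), by limma-voom (0.205) and with reads drawn down (0.0504). Keratinocytes also express S100a9 and S100a8, and the median of the list was 1.43. Of 6 dermal fibroblast genes, 0 were called, and the median was 0.49. Col1a1, the most abundant, was at 36683 ± 21309 in VC and 55218 ± 24981 in AP libraries, and Col1a2 at 34636 ± 17547 and 50669 ± 21834 (SD, n = 4). The part of other cell types in the Skint and CD3 values was not tested.

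Over the 8 libraries, the genes closest in pattern to the mean log2 level of the 6 Skint members, among 11252 genes with a mean of at least 50 normalized counts, were Flg (Pearson r = 0.998), Bcl11b (0.989), Casp14 (0.988), Il1f5 (0.987) and Sema3d (0.986). Flg and Casp14 are known for the late differentiation of keratinocytes. For the mean of the 3 CD3 members, the closest were P2ry1 (0.984), Il1f9 (0.980), Dtx2 (0.978), Dkkl1 (0.975) and Dnm2 (0.970). These values describe 8 points that share libraries, depth and the difference between the groups.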

How the data were processed

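Oligo-dT enriched mRNA was sequenced by the authors. Reads were aligned to mm10 with STAR, counted by gene (featureCounts in the study methods, HTSeq in the submitters' processing notes) and normalized with DESeq2. The deposited signal values are read counts divided by 1 size factor per library. All 150160 values were whole multiples of 1 step per library within 0.01 reads, so reads were recovered. The authors' own comparison was not used. Genes reaching 3 normalized counts in 4 or more of the 8 libraries were tested with limma 3.58.1 in R 4.3.3 (log2(value + 1), empirical Bayes with an intensity trend, Benjamini-Hochberg adjustment over all genes tested). On this scale the fold changes of low genes depend on the pseudocount and were smaller with larger pseudocounts for all 9 members. They were above those of DESeq2 for Skint9 (4.07 against 3.88) and Skint6 (3.73 against 3.56). For Skint3 (2.22 against 2.49), Skint4 (1.77 against 1.96) and Skint5 (1.44 against 1.64) they were below. The steps were tested on simulated data. Coordinates and exon lengths came from GENCODE, promoter windows from RefSeq.

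Members, the 15 marker lists and the rules were chosen with earlier results of these data known; 1 further list is not reported here. Named were the members, other Skint genes, and in each list the called genes (at most 6), the most abundant and the first 2. Added were the 5 closest correlates per set, the γ chains, Cd247 and flanking genes. Fyn, Foxp3, Cd6, Il2rb and Cxadr were added later, for groups that do not overlap. List symbols absent from the table were matched by Ensembl identifier (5 symbols). Alternatives were DESeq2 1.42.0, edgeR 4.0.16 and limma-voom on recovered reads, upper-quartile and total count scaling, mitochondrial genes left out, pseudocounts of 0.5 and 5, other filters, reads drawn down to 3080758 per library, and each library left out. Exact permutation tests were run but support no statement, as groups without overlap fix their p. The study gives 4 mice per group for a heat map of its RNA-seq; labels do not say that each sample came from a separate mouse, so p-values measure the spread between these samples.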

Additional observations from a re-analysis of the deposited data

Results flagged for a closer look

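In a group of 4 libraries, 1 value was taken to stand apart when its gap to the nearest other value took a share of the range of the group above Dixon's 95% critical value for 4 values. This was so in 15 of the 180 groups examined. In 4 of them, 3 of the 4 values were 0, which fixes the ratio at 1.0. Of 176 groups with fewer zeros it was so in 11, near the 1 in 20 that chance gives for normally distributed values. Low counts need not follow that distribution and genes share libraries, so the flags are a description. The ratio was 0.8872 for Skint4, where VC.1 had 49.1 normalized counts and the other VC libraries 19.1 to 22.5. AP.4 stood apart for Cd3e (60.1 against 26.9 to 31.9, ratio 0.8491), Cd3g (62.9 against 34.8 to 38.3, ratio 0.8767), Cd247 (91.6 against 58.7 to 61.8, ratio 0.9075), Trdv4 (30.0 against 7.25 to 11, ratio 0.8373) and Trgc4 (13.6 against 1.45 to 3.49, ratio 0.8322). These are all genes of the T cell receptor complex, so 1 library carried the highest level of several of them.

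Among VC libraries, Cd5 was high in VC.1 (32.7 against 2.73 to 7.50, ratio 0.8411), Laptm5 was high in VC.4 (1050.0 against 501 to 580.3, ratio 0.8558) and Epcam was low in VC.4 (210.0 against 415 to 434, ratio 0.9137). In the AP group, Cd74 was high in AP.1 (7666 against 4621 to 4947, ratio 0.8929) and Trac was low in AP.2 (3.77 against 4.98 to 5.08, ratio 0.9275). For 4 genes at 0 in all but 1 VC library the ratio was 1.0: Btn1a1 (2.96), Btn2a2 (1.48) and Trgv5 (4.43) in VC.2, and Klrb1c (3.75) in VC.4.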

How the results depend on the processing

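All 6 Skint and 3 CD3 members were higher in AP in each alternative run; the number called varied. Of 1650 genes called (1011 higher, 639 lower), total counts gave 8727 (8657 and 70), as its construction shifts the median log2 fold change to 0.90, and DESeq2 gave 3039 (1677 and 1362). Of the genes called, 61.3% were higher, against 49.9% with upper-quartile factors, 49.7% by voom and 99.2% with total counts. Leaving out 1 library gave 303 to 1899 genes (209 to 1082 higher, 94 to 817 lower), 0 to 5 Skint members and 0 to 1 CD3 members. Without AP.3 and AP.4, chosen after seeing the data, 30 genes (20 and 10), 0 Skint members and 0 CD3 members were called. Voom called 0 Skint members, and total counts called 3 CD3 members. Skint4 lost its call without a filter and with reads drawn down. Of 25 other list genes called, 13 kept their call without AP.3, 13 without AP.4 and 2 without both.

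Signs turned for Trbc2 (-0.12 with reads drawn down, -0.0091 by voom, -0.28 without AP.3 and AP.4, and -0.23 to 0.30 when 1 library was left out), Trbc1 (0.53 with total counts) and Trgc2 (-0.0907 by DESeq2, -0.12 by edgeR). The cause of the other shifts was not tested. VC values of Skint6, Skint9, Skint10 and Cd3d rest on few reads, which limits their fold changes. No paired analysis was possible because VC and AP sample titles share no number, and column numbers were not tied to the titles.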
